A study of Mus musculus with 27 samples.

Results

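The genes described here encode the nuclear subunits of the oxidative phosphorylation machinery of the mitochondrion. They were picked by symbol alone, as the genes whose names begin with Nduf followed by a, b, c, s or v and a number, Sdha to Sdhd, Uqcr, Cox4 to Cox8 or Atp5, without the tissue isoforms Cox7a1 and Cox8b. This gave 81 genes among the 24825 gene rows of the files: 37 of complex I, 4 of complex II, 8 of complex III, 16 of complex IV and 16 of complex V. Their mRNA was measured by RNA-seq in C2C12, a mouse myoblast cell line that forms myotubes. Cells carried a control retroviral vector (control), a vector for 3xFLAG-tagged full-length NFIA (NFIA), or a vector for the FLAG-tagged deletion mutant of NFIA without its most C-terminal proline-rich stretch (Δpro#3). Cells of all 3 constructs, the control included, were harvested before differentiation (day 0), 7 days into it (day 7), or on day 7 with 10 µM forskolin, a drug that raises cyclic AMP, for the last 4 h. Per the labels, differentiation was started with IBMX, indomethacin, dexamethasone, insulin, T3 and rosiglitazone and went on with insulin, T3 and rosiglitazone, in control cells too. There were 3 samples in each of the 9 groups, 27 in all. The constructs were overexpressed from a viral promoter in 1 cell line, and the labels do not say whether the 3 samples of a group were separate cultures, so p-values measure only the spread between these samples.

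Complex I (NADH dehydrogenase) and complex II (succinate dehydrogenase) feed electrons into the respiratory chain, complex III passes them from ubiquinone to cytochrome c, and complex IV (cytochrome c oxidase) hands them to oxygen. Complexes I, III and IV pump protons, and complex V (ATP synthase) uses the resulting gradient to make ATP, whereas brown adipocytes can dissipate it as heat through UCP1. Muscle and brown fat are both rich in mitochondria, and several complex IV subunits exist as a form found in most tissues (Cox6a1, Cox8a) and a form of heart and skeletal muscle (Cox6a2) or of muscle and brown fat (Cox7a1, Cox8b). The comparisons ask how NFIA, a transcription factor of brown adipocytes, and the Δpro#3 mutant bear on these mRNAs.

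The libraries held 9567769 to 27230965 fragments assigned to genes. Nfia itself lay at 0.0885 to 7.35 FPKM (a fragment count divided by transcript length and by library depth) in the 9 control samples and at 225 to 594 FPKM in the 18 samples of the NFIA and Δpro#3 vectors. At day 7 the summed level of 22 muscle markers was 23907 to 28197 FPKM in control, 3391 to 4665 FPKM in NFIA and 25442 to 26874 FPKM in Δpro#3 cells, and none of the 22 was at 0 in any sample. That of 17 adipocyte markers was 687 to 745, 20077 to 22082 and 1063 to 2799 FPKM in the same order, none at 0 at day 7. The summed level of 8 brown fat markers was 114 to 151 FPKM in control, 369 to 394 in NFIA and 255 to 328 FPKM in Δpro#3 cells at day 7, and of the 4 that could be tested 2 were higher and 2 lower with NFIA (2 and 0 under median-ratio scaling) and 3 higher and 0 lower with Δpro#3 by limma. Most of that level was Cox8b, with means of 85.8, 315 and 194 FPKM in the same order. Cox7a1 lay at 67.7 FPKM or more in Δpro#3 and at 36.1 FPKM or less in control and NFIA cells, and muscle also expresses both genes. Cox8b and Cidea were the 2 higher with NFIA, and Cox8b, Cox7a1 and Dio2 the 3 higher with Δpro#3. Of the 8, Ucp1 was at 0 in all 9 samples of day 7 without forskolin, and Cidea lay at 24.9, 31.2 and 25.5 FPKM in NFIA cells and at 0.226 FPKM or less in the others of that day. Cidea could be tested only because of its level in NFIA cells. Muscle marker mRNA was thus abundant in control and Δpro#3 cells and less so in NFIA cells, where adipocyte marker mRNA was abundant. In such bulk samples fewer cells of a type and less RNA per cell cannot be told apart. One Δpro#3 library, replicate 1 of day 7, stood apart with the 2799 FPKM of adipocyte markers, and replicate 1 of NFIA with forskolin held more of the respiratory chain mRNA than its 2 partners.

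Most of the machinery was abundant. In day 0 control cells the median of the 81 genes was 86.3 FPKM and 35 of them exceeded 100 FPKM, and at day 7 the median was 163 FPKM in control, 181 FPKM in NFIA and 170 FPKM in Δpro#3 cells. Atp5b, the catalytic beta subunit of ATP synthase, was the highest in every group. Between replicates the members differed little, with a median coefficient of variation of 3.17% to 9.83% in the 9 groups. Genes whose mean over the samples compared was under 0.5 FPKM were not tested, which left 75 members at day 0 and 76 elsewhere. The 5 never tested were the alternative forms Cox4i2, Cox6b2 and Cox7b2, at 0.607 FPKM or less in each sample, Cox8c, at 0 in all 27, and Ndufs5, a complex I subunit that was also listed at 0 in all 27 samples. Ndufa4l2, an isoform of Ndufa4, lay at 0.175 to 0.592 FPKM at day 0, where it was not tested. In the comparisons of day 7 with day 0 it passed the filter only through its day 7 level. The authors kept only reads with a single place in the genome, and exact copies of at least 50 bases were found elsewhere in the genome for the transcripts of 43 of the 81 members, covering 60.6% of that of Ndufs5, 46.1% of Cox8a and 28.4% of Cox6a1. These percentages refer to the longest annotated transcript, which can differ in length from the one counted, at 680 against 509 bases for Ndufs5. Coverage was higher still for Atp5g2 (100%), Atp5l (90.4%), Atp5h (89.4%) and Uqcrb (88.6%), which averaged 183, 86.3, 209 and 127 FPKM in day 0 control cells, and the part of such copies in the 0 of Ndufs5 was not tested. Levels of different members are therefore compared with this limit, while the same gene in different samples shares it.

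Because the members moved together with time and the strongest changes with NFIA fell on a few of them, promoters are shown for 4 members: 3 that were among the highest with NFIA at day 7 (Cox6a1, Cox8a, Ndufv3) and 1 that was lower (Cox7a2l). Each window runs from 250 bases before to 50 bases after the transcription start, 5′ to 3′ on the gene's strand, from RefSeq on GRCm38.p6. Capitals mark matches on either strand to the NRF1 motif GCGCATGCG, the GABP motif CCGGAAGT or the SP1 motif GGGCGG. Cox6a1 (chr5:115348909-115349208, minus strand) has NRF1 motifs that overlap on both strands and SP1 motifs, Cox8a (chr19:7217567-7217866, minus strand) has a pair of GABP motifs near its start, and Ndufv3 (chr17:31519865-31520164, plus strand) and Cox7a2l (chr17:83514284-83514583, minus strand) have SP1 motifs. All 4 hold matches, whereas the window of Sdha, which was also higher with NFIA, holds none of the motifs searched.
Cox6a1: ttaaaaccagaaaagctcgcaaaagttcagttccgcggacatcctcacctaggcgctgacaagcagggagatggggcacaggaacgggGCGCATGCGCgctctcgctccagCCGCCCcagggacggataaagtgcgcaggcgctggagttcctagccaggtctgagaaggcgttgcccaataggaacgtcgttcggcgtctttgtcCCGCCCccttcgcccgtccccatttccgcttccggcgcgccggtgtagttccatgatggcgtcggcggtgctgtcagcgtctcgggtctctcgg
Cox8a: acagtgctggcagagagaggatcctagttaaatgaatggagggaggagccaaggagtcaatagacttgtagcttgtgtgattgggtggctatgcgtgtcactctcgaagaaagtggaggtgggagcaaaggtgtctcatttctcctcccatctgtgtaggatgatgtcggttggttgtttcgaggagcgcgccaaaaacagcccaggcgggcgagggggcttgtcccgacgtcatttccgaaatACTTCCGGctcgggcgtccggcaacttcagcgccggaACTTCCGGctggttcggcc
Ndufv3: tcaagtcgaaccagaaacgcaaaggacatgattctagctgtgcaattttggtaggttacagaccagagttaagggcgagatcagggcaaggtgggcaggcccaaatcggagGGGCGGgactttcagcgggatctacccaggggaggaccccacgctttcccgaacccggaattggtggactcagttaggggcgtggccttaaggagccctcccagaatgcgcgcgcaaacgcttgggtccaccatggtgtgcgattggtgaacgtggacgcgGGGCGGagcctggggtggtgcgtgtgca
Cox7a2l: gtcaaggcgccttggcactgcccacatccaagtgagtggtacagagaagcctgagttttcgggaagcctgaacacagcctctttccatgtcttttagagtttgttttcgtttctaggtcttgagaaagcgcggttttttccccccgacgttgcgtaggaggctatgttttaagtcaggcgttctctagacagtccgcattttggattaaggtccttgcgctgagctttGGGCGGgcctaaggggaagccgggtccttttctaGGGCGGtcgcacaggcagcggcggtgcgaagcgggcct

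Of the 81 members 66 had such a window. The NRF1 letters were found in windows of 8 of the 66 members (12.1%) and in those of 1.95% of all 27025 genes with a window, the YY1 motif AAGATGGCG in 7 members (10.6%) and 1.64% of all genes, the GABP motif in 5 (7.58%) and 4.31%, the estrogen-related receptor motif TCAAGGTCA in 2 (3.03%) and 0.466%, and the SP1 motif in 28 (42.4%) and 38.2%. NRF1, GABP and YY1 are general activators of respiratory chain genes. Among members with a window, the NRF1 letters were held by 5 of the 30 that were higher with NFIA at day 7, 0 of the 10 that were lower and 3 of the 23 not called. The counts were 2, 0 and 3 for GABP, 1, 1 and 5 for YY1, 1, 1 and 0 for the estrogen-related receptor and 11, 8 and 7 for SP1, in the same order. These are counts of letters in one window, without a test.

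From day 0 to day 7 nearly the whole machinery rose, whichever construct the cells carried. The members together took 2.40% to 2.45% of all FPKM in control cells at day 0 and 3.64% to 3.97% at day 7, a ratio of means of 1.56, with ratios of 1.85 in NFIA and 1.68 in Δpro#3 cells. By limma on log2(FPKM + 1), with a change called where the Benjamini-Hochberg adjusted p over all genes tested was under 0.05, 75 of 76 members rose in control cells, where 36% of all 12408 genes tested rose and 42.7% fell. None fell, also at an unadjusted p and by limma-voom. Ndufa4l2, tested only because of its day 7 level, is among those counted as rising in each construct. In NFIA cells 74 rose and 1 fell (33.2% and 46.5% of all genes), and in Δpro#3 cells 75 rose and 1 fell (32.8% and 46.7%). The median log2 change of the members was 0.88 in control, 0.98 in NFIA and 0.95 in Δpro#3 cells, beside −0.06, −0.11 and −0.11 over all genes. Median-ratio scaling moved the median of all genes by 0.05, 0.13 and 0.11 and left 75, 75 and 75 members rising. Under it 39.2%, 40.6% and 39.1% of all genes rose. The rise was called in all 3 constructs for 73 members, and exceeded 2-fold on this scale in all 3 for 14.

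**Figure D1:**
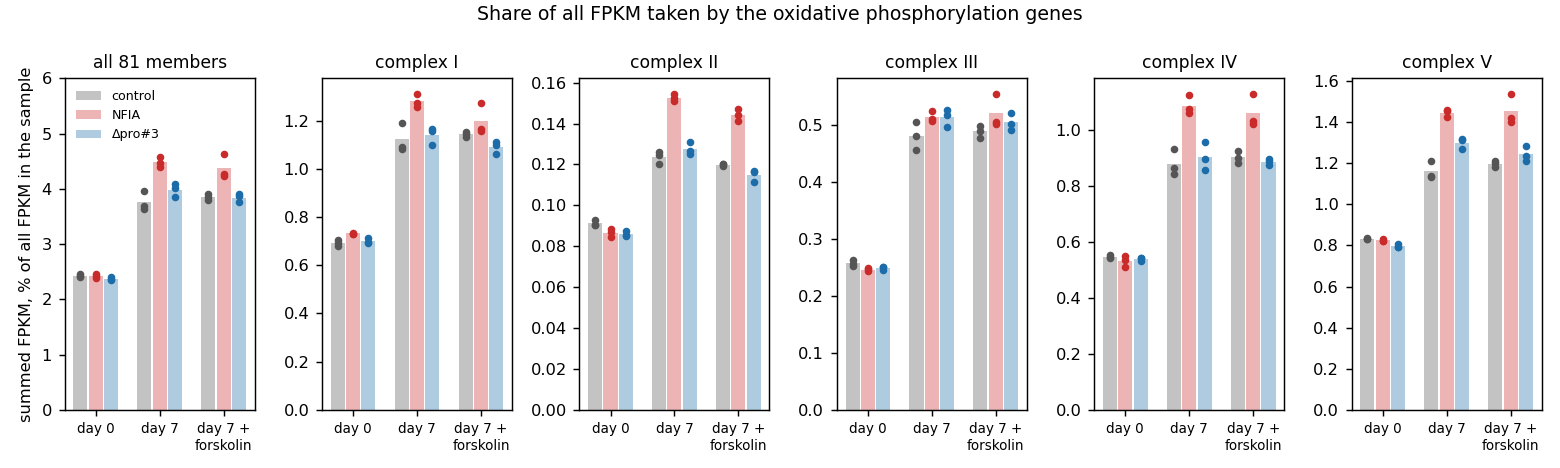
Summed FPKM of all 81 members and of each complex as a percentage of all FPKM in a sample (vertical axes, each from 0), by time point and construct. Bars are means of 3 samples and points are single samples. The share of all members rose from 2.42% to 3.77% in control cells and from 2.42% to 4.48% in NFIA cells.

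Every complex took part. In control cells 35 of 36 tested subunits of complex I rose (median log2 change 0.90), as did 4 of 4 of complex II (0.66), 8 of 8 of complex III (1.05), 12 of 12 of complex IV (0.90) and 16 of 16 of complex V (0.80). The 7 catalytic core subunits of complex I and its 29 tested accessory subunits had medians of 0.83 and 0.93. Among genes tied to the same organelle, 12 of 13 enzymes of the TCA cycle rose and 1 fell (median 0.62), 72 of 78 mitochondrial ribosomal proteins rose and 1 fell (0.69), and 33 of 38 tested assembly factors rose and 2 fell (0.67). In the same cells 22 of 22 muscle markers and 14 of 17 adipocyte markers rose. The filter took the mean over the samples of all constructs, NFIA cells included. In the day 0 samples alone 21 of the muscle and 10 of the adipocyte markers passed it. The other markers were tested here only through day 7 levels, which were not those of control cells alone. The part of these cell types in the rise was not tested. Mitochondrial genes were not alone in this, since 68 of 80 cytosolic ribosomal proteins (median 0.42) and 33 of 37 proteasome subunits (0.66) rose as well.

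Cox6a2, the muscle form of a complex IV subunit, had the widest change. It lay at 6.52, 8.25 and 7.09 FPKM in day 0 control cells and at 224, 214 and 267 FPKM at day 7. In NFIA cells it went from 2.43, 2.59 and 2.28 to 74.4, 56.4 and 67.5 FPKM, and in Δpro#3 cells from 1.66, 2.72 and 2.28 to 186, 226 and 174 FPKM. Day 0 and day 7 did not overlap in any construct, and the ratio of means was 32.2 in control, 27.2 in NFIA and 88.1 in Δpro#3 cells (log2 changes of 4.83 ± 0.13, 4.28 ± 0.13 and 5.94 ± 0.13, SE). Behind it came Uqcr10, a small complex III subunit, in control (log2 change 1.59), its neighbour in the complex Uqcrq in NFIA (1.88) and Atp5g1, a gene of the ATP synthase c-ring, in Δpro#3 cells (1.90).

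A few members did not follow. Atp5s encodes coupling factor B, which acts on ATP synthase and is not one of its structural subunits. It was at 3.85, 3.98 and 3.25 FPKM in control at day 0 and rose to 4.61, 5.28 and 4.5 FPKM (adjusted p = 0.0083, limma). In NFIA cells it fell from 3.43, 3.75 and 3.88 to 2.70, 3.39 and 2.69 FPKM (log2 change −0.26, adjusted p = 0.022), a call lost under median-ratio scaling (−0.14, adjusted p = 0.18), and in Δpro#3 cells from 4.28, 3.99 and 3.69 to 2.37, 2.96 and 3.36 FPKM (−0.36, adjusted p = 0.0026). Ndufb2, an accessory subunit of complex I, was the member without a call in control (log2 change 0.14, adjusted p = 0.21) but rose in NFIA (0.53) and Δpro#3 cells (0.56). Ndufa4, whose protein is now placed in complex IV but which is counted here with complex I by its name, was the member without a call in NFIA cells (log2 change 0.09, adjusted p = 0.13). It already lay at 339, 356 and 383 FPKM at day 0 there, above the 298, 279 and 270 FPKM of control, and at 379, 376 and 391 FPKM at day 7.

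**Figure D2:**
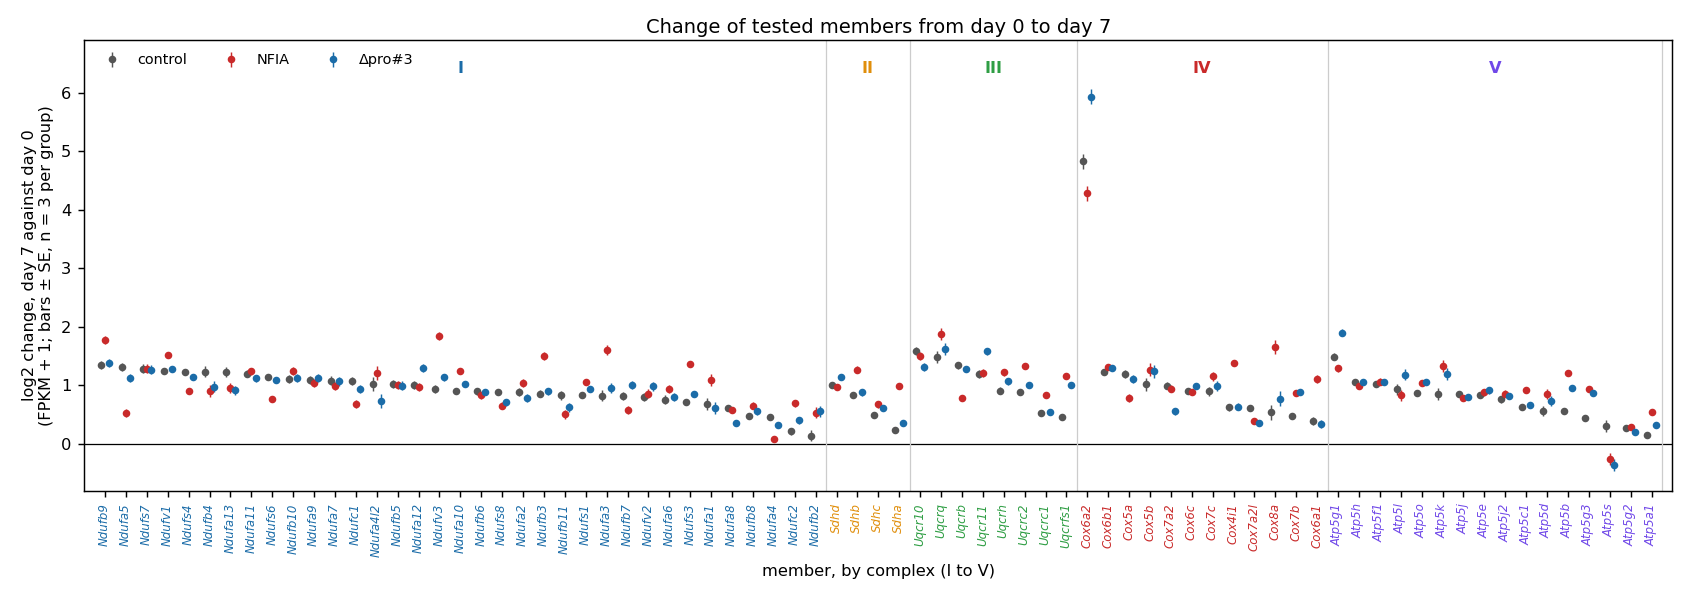
Log2 change of FPKM + 1 from day 0 to day 7 (vertical axis) for 75 of the 76 tested members, grouped by complex along the horizontal axis. Points are estimates for each construct and bars are ± SE, with 3 samples a group. Apart from Atp5s in NFIA and Δpro#3 cells all estimates are above 0, and Cox6a2 lies between 4.28 and 5.94.

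The course itself differed between the constructs. In the test of the difference, 32 members rose more from day 0 to day 7 in NFIA than in control cells and 16 rose less or fell (31.1% and 40.1% of all genes), with a median difference of 0.12 beside −0.08 over all genes. Under median-ratio scaling the counts were 36 and 9, beside 34.8% and 35.2% of all genes. Cox8a (difference of log2 changes 1.12 ± 0.18), Ndufv3 (0.91 ± 0.09), Ndufa3, Sdha and Cox4i1 rose more, and Ndufa5 (−0.78 ± 0.10) and Atp5s (−0.56 ± 0.14) rose less or fell. Cox6a2 was at −0.55 ± 0.18 (adjusted p = 0.013), but its low day 0 level makes this depend on the pseudocount, and with 0.1 in place of 1 it was −0.29 and not called (adjusted p = 0.24). For Δpro#3 against control 12 rose more and 6 less (18.9% and 25.9% of all genes), led by Cox6a2 (1.11 ± 0.18) and Uqcrfs1 (0.55 ± 0.08) on one side and Atp5s (−0.67 ± 0.14) and Cox7a2 (−0.44 ± 0.09) on the other. Scaling moved these counts to 22 and 4, beside 22.9% and 20.2% of all genes.

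At day 7 the respiratory chain mRNAs were on balance higher in NFIA than in control cells, with large exceptions. Of 76 members 39 were higher and 13 lower, compared with 31.3% and 41.1% of all 12324 genes tested. The median log2 change was 0.17 beside −0.08 over all genes. Median-ratio scaling moved the median of all genes by 0.09 and the members' counts to 49 higher and 5 lower, beside 36.3% and 34.9% of all genes. The share of all FPKM was 3.69%, 3.64% and 3.97% in control and 4.57%, 4.40% and 4.47% in NFIA cells, without overlap. These samples also differed in 22 of 22 muscle markers (lower in NFIA) and 17 of 17 adipocyte markers (higher), and the part of that difference in these values was not tested.

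**Figure D3:**
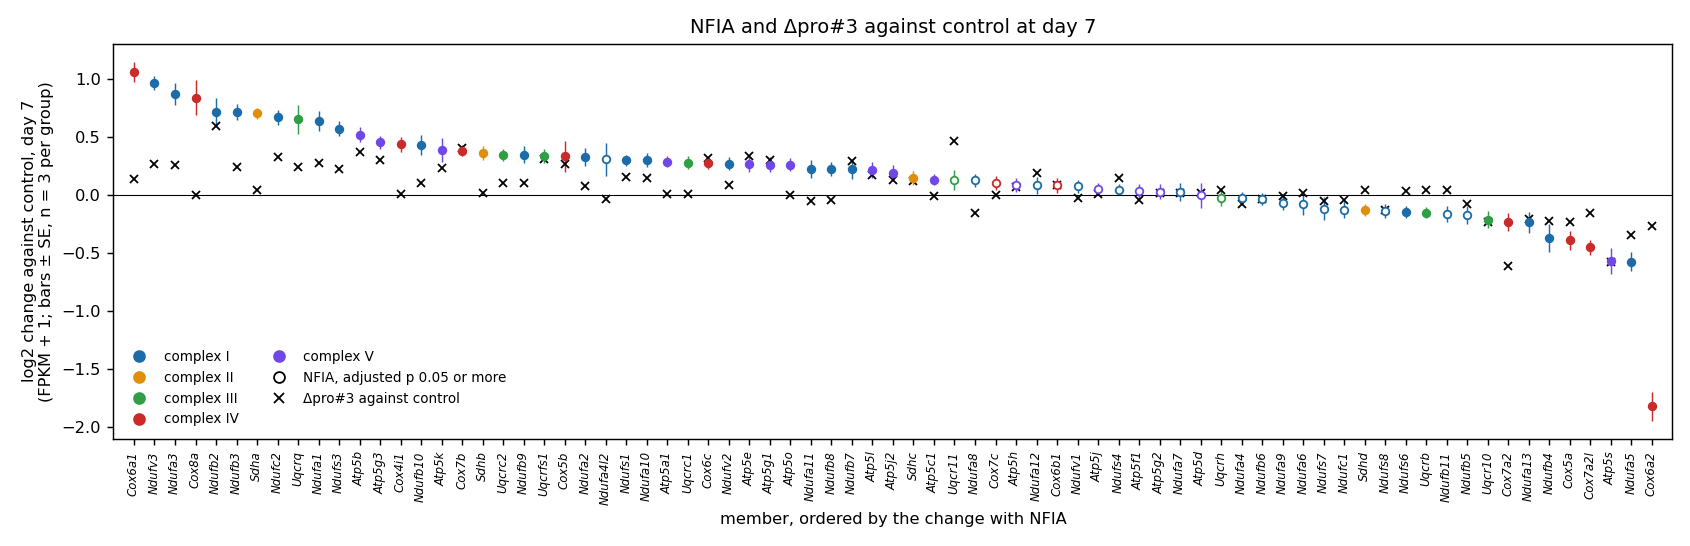
Log2 change of FPKM + 1 against control at day 7 (vertical axis) for 75 of the 76 tested members, ordered by the change with NFIA (horizontal axis). Circles are NFIA with bars of ± SE and 3 samples a group, coloured by complex and filled where the adjusted p was under 0.05, and crosses are Δpro#3. Changes with NFIA run from −1.82 (Cox6a2) to 1.07 (Cox6a1), and those with Δpro#3 from −0.61 to 0.60.

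The sharpest contrast was between both forms of complex IV subunit VIa. Cox6a1 (chromosome 5, bases 115795651 to 115798990 of mouse build NCBIM37, minus strand) lay at 277, 267 and 311 FPKM in control, 620, 558 and 612 FPKM in NFIA and 324, 339 and 280 FPKM in Δpro#3 cells at day 7. NFIA cells stood alone at the top, 2.09 times the control mean (log2 change 1.07 ± 0.09, adjusted p = 1.4e-06 by limma), while Δpro#3 and control overlapped (0.14 ± 0.09, adjusted p = 0.21). Cox6a2 (chromosome 7, bases 135348950 to 135349880, minus strand) went the other way, from 224, 214 and 267 FPKM in control to 74.4, 56.4 and 67.5 FPKM in NFIA cells. That is 0.281 times the control mean (log2 change −1.82 ± 0.13, adjusted p = 4.5e-07). With Δpro#3, at 186, 226 and 174 FPKM, it was not called (−0.27 ± 0.13, adjusted p = 0.11), and it was higher than with NFIA (1.55 ± 0.13, adjusted p = 2.2e-06).

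Taken as a share of Cox6a1 plus Cox6a2, Cox6a2 made up 44.7%, 44.6% and 46.2% in control, 10.7%, 9.18% and 9.93% in NFIA and 36.5%, 40.0% and 38.4% in Δpro#3 cells at day 7. At day 0 the share was 2.94%, 3.65% and 3.16% in control, 0.828%, 0.948% and 0.843% in NFIA and 0.640%, 1.11% and 0.930% in Δpro#3 cells. With forskolin it was 44.0%, 45.3% and 44.3%, then 7.18%, 8.12% and 8.36%, then 37.2%, 38.3% and 36.2%. The 3 samples of either construct never overlapped those of control, and at day 7 NFIA lay 35.2 percentage points and Δpro#3 6.83 percentage points below control. The exact two-sided permutation test gave p = 0.1 for each of the 6 comparisons with control, the smallest that 3 against 3 allow, and 0.175 after adjustment over the 42 isoform comparisons. Such a lack of overlap was not particular to Cox6a2. The share of Atp5g3 in its c-ring group, described below, did not overlap control in any comparison either.

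**Figure D4:**
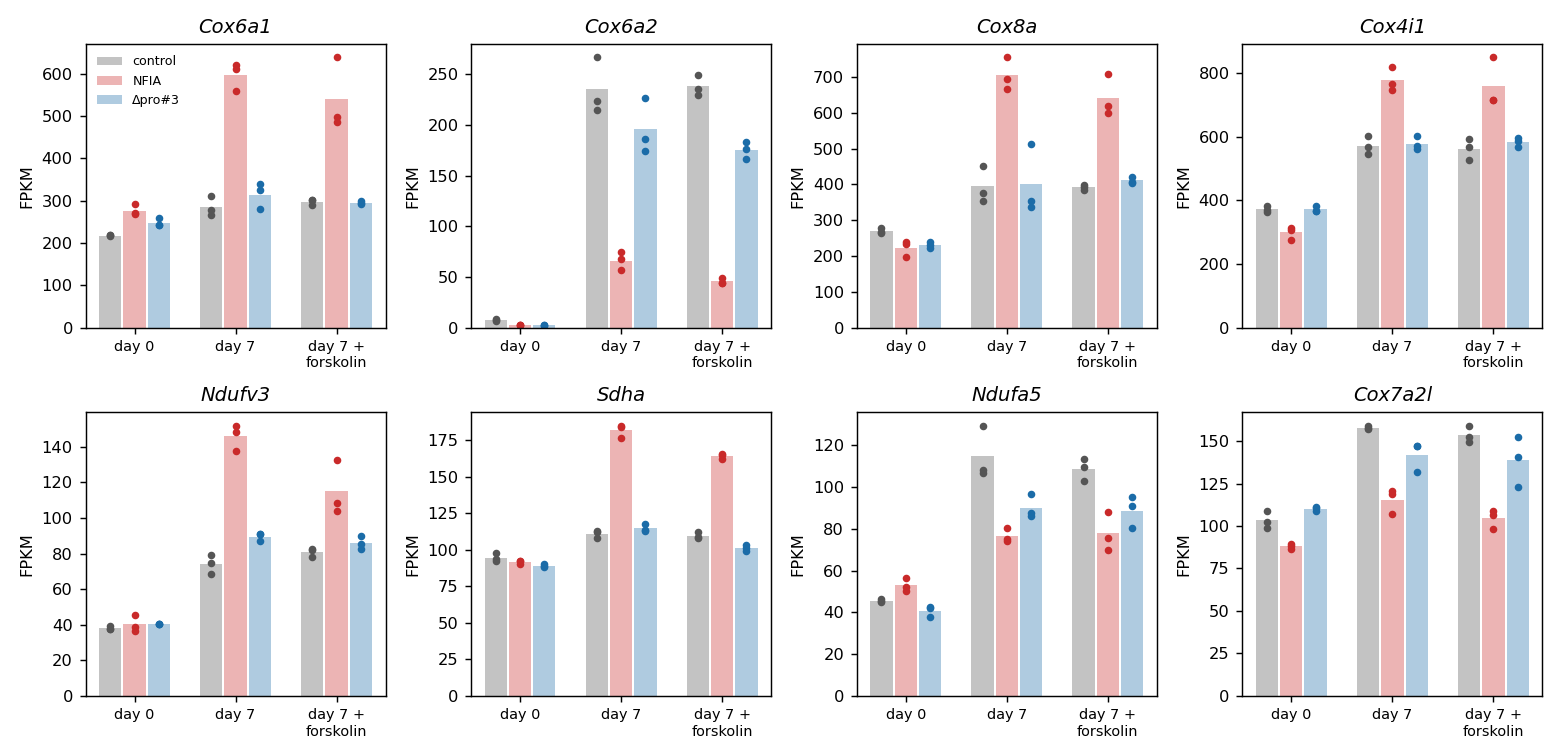
FPKM of 8 members (vertical axes, each from 0) by time point and construct. Bars are means of 3 samples and points are single samples. At day 7 Cox6a1 averages 285 FPKM in control and 597 in NFIA cells, and Cox6a2 235 and 66.1 FPKM.

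Other complex IV subunits split as well. Cox8a (chromosome 19, bases 7289648 to 7292106), the form of subunit VIII found in most tissues, was at 376, 355 and 452 FPKM in control and 755, 667 and 694 FPKM in NFIA cells (log2 change 0.84 ± 0.15, adjusted p = 0.00048). In Δpro#3 cells it was at 354, 512 and 337 FPKM, a range that encloses control. Cox4i1, which carries the site of regulation of the enzyme by ATP, was at 568, 544 and 603 in control, 818, 746 and 764 in NFIA and 603, 571 and 560 FPKM in Δpro#3 cells (NFIA against control 0.44 ± 0.06). 3 further genes were lower with NFIA, namely Cox5a (−0.39 ± 0.08), Cox7a2 (−0.23 ± 0.08, lost under median-ratio scaling at −0.12, adjusted p = 0.19) and Cox7a2l, which helps to join complexes III and IV into a supercomplex. Cox7a2l was at 157, 159 and 158 FPKM in control and 121, 119 and 107 FPKM in NFIA cells (−0.45 ± 0.06). Of the forms left out by the rule, Cox8b was at 83.2, 72.7 and 102 FPKM in control, 310, 324 and 312 in NFIA and 230, 188 and 164 FPKM in Δpro#3 cells. Cox7a1 was at 28.5, 27.3 and 36.1 FPKM in control, 23.7, 24.3 and 27 in NFIA and 73.4, 69.1 and 67.7 FPKM in Δpro#3 cells, so it was highest with the mutant (log2 change against control 1.18 ± 0.10), where Cox8b was intermediate (1.17 ± 0.13, with 1.88 ± 0.13 for NFIA).

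In complex I, 16 of 36 tested subunits were higher with NFIA at day 7 and 5 lower. Counts by complex here and below are without median-ratio scaling, under which 5 of all 76 members were lower. Ndufv3 (chromosome 17, bases 31657060 to 31668266), an accessory subunit next to the NADH-oxidising site, was at 74.8, 68.4 and 78.9 FPKM in control and 152, 137 and 149 FPKM in NFIA cells (log2 change 0.97 ± 0.06, adjusted p = 2.6e-07). It was at 90.7, 90.8 and 87.1 FPKM with Δpro#3, between both groups (0.27 ± 0.06 against control, adjusted p = 0.0049). The accessory subunits Ndufa3 (0.87 ± 0.09), Ndufb3 and Ndufb2 (both 0.72) followed. Ndufa5 was the reverse, at 108, 107 and 129 FPKM in control, 75, 80.6 and 74.3 in NFIA and 86.0, 97.0 and 87.6 FPKM in Δpro#3 cells (−0.57 ± 0.08 and −0.34 ± 0.08 against control).

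In complex II, Sdha (chromosome 13, bases 74459702 to 74487728), the flavoprotein subunit that oxidises succinate, was at 108, 112 and 113 FPKM in control, 176, 185 and 184 in NFIA and 118, 114 and 113 FPKM in Δpro#3 cells. NFIA cells were 1.64 times as high as control (0.71 ± 0.05, adjusted p = 2.5e-07), and its iron-sulfur partner Sdhb was higher too (0.36 ± 0.06). Of the membrane anchors, Sdhc was higher (0.15 ± 0.06) and Sdhd lower (−0.13 ± 0.05), the latter not called under median-ratio scaling (−0.02, adjusted p = 0.72), so that 3 of the 4 subunits were higher and 1 lower. In complex III, 4 of 8 subunits were higher and 2 lower, with Uqcrq (0.66 ± 0.13) and the Rieske protein gene Uqcrfs1 (0.34 ± 0.06) among the former. In complex V 10 of 16 were higher and 1, Atp5s, was lower. Atp5b stood at 996, 1015 and 1120 FPKM in control, 1490, 1491 and 1516 in NFIA and 1348, 1405 and 1299 FPKM in Δpro#3 cells, so both constructs lay above control (0.52 ± 0.07 and 0.37 ± 0.07). Of Atp5g1, Atp5g2 and Atp5g3, which encode the same c-ring protein with different import signals, Atp5g3 made up 50.9%, 53.4% and 51.7% of the sum in control and 55.5%, 58.8% and 57.4% in NFIA cells (exact permutation p = 0.1, adjusted p = 0.175). At day 0 this share went the other way, also without overlap, with means of 57.5% in control and 54.0% in NFIA cells. Exact copies elsewhere cover 35.9% of the longest annotated transcript of Atp5g1, 100% of that of Atp5g2 and none of Atp5g3. That transcript of Atp5g1 has 4715 bases, against the 868 used for its FPKM. Only the difference between groups is therefore read from these shares.

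With Δpro#3 fewer members were called. Against control at day 7, 18 members were higher and 7 lower, or 24 and 4 under scaling. All genes stood at 21.3% and 27.5%, or 25.4% and 22.3% under scaling. Without scaling the members' median was 0.05 beside −0.04 over all genes. Largest were Ndufb2 (0.60 ± 0.12) and Uqcr11 (0.47 ± 0.09) on the upper side and Cox7a2 (−0.61 ± 0.08) and Atp5s (−0.58 ± 0.11) on the lower. Cox7a2, the widely expressed form of subunit VIIa, was at 219, 211 and 250 FPKM in control, 195, 192 and 192 in NFIA and 134, 159 and 152 FPKM in Δpro#3 cells. It was thus lowest in the construct in which its muscle and brown fat counterpart Cox7a1 was highest. Without Δpro#3 replicate 1, the library with most adipocyte marker mRNA, 14 members were higher than in control.

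Set directly against NFIA, Δpro#3 cells were lower in 29 members and higher in 8 (29.4% and 34.3% of all genes), with a median of −0.06 beside 0.03. Scaling gave 31 lower and 4 higher, beside 32.0% and 31.5% of all genes. Of the 39 members that were higher in NFIA than in control, 26 were lower in Δpro#3 than in NFIA, 13 were not called and 0 were higher, by limma. Both comparisons use the same NFIA samples, so part of this is fixed by construction. Cox6a1 (−0.93 ± 0.09), Cox8a (−0.84 ± 0.15), Ndufv3 and Sdha led this difference. Cox6a2 (1.55 ± 0.13) and Uqcr11 (0.33 ± 0.09) were the members most above NFIA. Atp5s (−0.01 ± 0.11, adjusted p = 0.92) and Uqcrfs1 (−0.02 ± 0.06, adjusted p = 0.77) did not pass the test between both constructs.

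Before differentiation the 81 members as a whole showed no common direction. At day 0, 26 members were higher and 18 lower with NFIA than in control (37.7% and 35.6% of all 12105 genes tested), with a median of 0.04. With Δpro#3 17 were higher and 13 lower (32.5% and 29.7%). Scaling gave 15 and 15 with Δpro#3, beside 31.6% and 30.6% of all genes. The 17 became 9 without a filter, 8 in 1 fit of all 27 samples, and 10 without control replicate 3 or without Δpro#3 replicate 3. The 13 became 9 without a filter and 8 in 1 fit of all 27 samples. Between Δpro#3 and NFIA 16 were higher and 20 lower (33.4% and 31.9%). These were 10 and 14 without a filter and 8 and 12 in 1 fit of all 27 samples. The members' share of all FPKM was 2.45%, 2.42% and 2.40% in control, 2.45%, 2.42% and 2.39% in NFIA and 2.36%, 2.34% and 2.40% in Δpro#3 cells, so the groups overlapped. In complex I, 14 of 35 subunits were higher and 6 lower with NFIA (median 0.10), beside 37.7% and 35.6% of all genes. With Δpro#3 11 were higher and 2 lower (0.06), beside 32.5% and 29.7%. With NFIA its accessory subunits had 12 of 28 higher and 2 lower, and its core subunits 2 of 7 higher and 4 lower. Complex II had 0 of 4 higher and 1 lower with NFIA, III 3 of 8 and 3, IV 2 of 12 and 5 and V 7 of 16 and 3. Differences between complexes were not tested. Complex I took 0.732% to 0.733% of all FPKM in NFIA and 0.680% to 0.704% in control cells, which did not overlap. Complex V took 0.791% to 0.805% in Δpro#3 and 0.829% to 0.838% in control cells, also without overlap. Complexes II and III lay below control without overlap with both constructs. Complex II took 0.0902% to 0.0929% in control, 0.0847% to 0.0886% in NFIA and 0.0852% to 0.0876% in Δpro#3 cells. Complex III took 0.252% to 0.264%, 0.243% to 0.249% and 0.246% to 0.251% in the same order. Atp5g1 was higher with NFIA, at 107, 103 and 119 FPKM against 80.2, 81.6 and 75.4 FPKM in control. Cox8a and Cox4i1, higher with NFIA at day 7, were lower with it at day 0 (−0.28 ± 0.06 and −0.31 ± 0.05). Of the 39 members higher with NFIA at day 7, 16 were higher and 7 lower with it at day 0.

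The samples treated with forskolin gave a second set of cells, separate from those of day 7 without the drug, in which to read the effect of the constructs. There 32 members were higher and 16 lower with NFIA than in control (25.5% and 47% of all 12121 genes), median 0.05 beside −0.17 over all genes. Scaling, which moved the median of all genes by 0.16, gave 42 and 8. Of the 39 members higher at day 7, 30 were higher again (76.9% of the 39 and 93.8% of the 32), and of the 13 lower, 9 were lower again. None was called in the opposite direction, by limma. Across the 76 members the log2 changes of both sets correlated with Pearson's r = 0.93, and 0.90 without Cox6a2, as a description over genes, which are not independent. The same figures over all genes are not given, so this agreement is not read as particular to the members. Cox6a1 was at 300, 302 and 289 FPKM in control and 638, 498 and 487 FPKM in NFIA cells, and Cox6a2 at 236, 249 and 230 against 49.3, 44.0 and 44.4 FPKM, again without overlap. Replicate 1 held 4.63% of all FPKM in the members beside 4.24% and 4.26% in the other NFIA libraries, and without it 27 members were higher than in control, with a median of −0.05.

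With Δpro#3 and forskolin 9 members were higher and 14 lower than in control (19.5% and 27.1%), with a median of −0.02. Under scaling it turned to 0.03 with counts of 13 and 6, beside 23.3% and 22.2% of all genes. The count of lower members was 8 without a filter, 7 without control replicate 1, 8 without control replicate 2 or 3 and 7 without Δpro#3 replicate 3. Against NFIA 28 were lower and 8 higher (24.2% and 42%). Scaling gave 44 lower and 3 higher, beside 31.4% and 31.6% of all genes. Cox7a2 was at 221, 236 and 218 FPKM in control and 169, 186 and 170 FPKM in Δpro#3 cells (−0.36 ± 0.07), and Atp5s at 4.18, 3.91 and 4.26 against 2.67, 2.70 and 2.46 FPKM (−0.50 ± 0.07). Both were lower with the mutant here as at day 7.

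**Figure D5:**
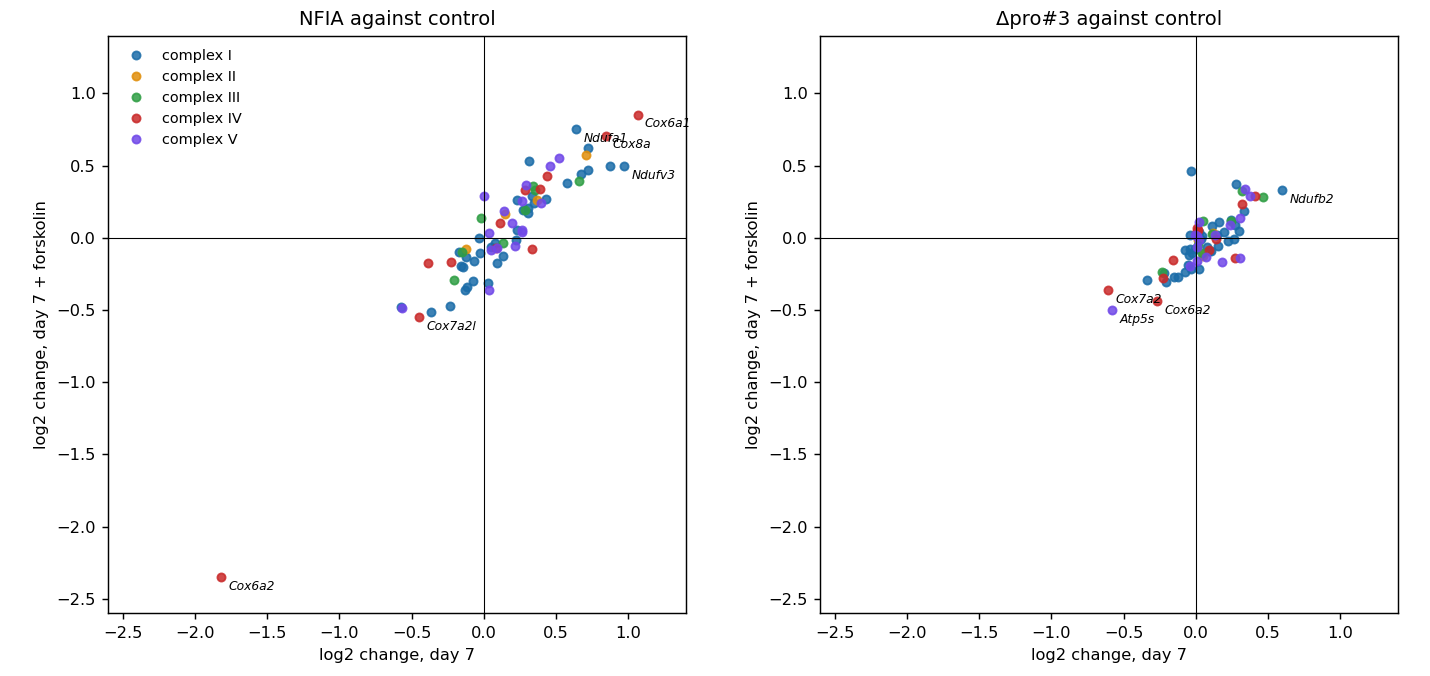
Log2 change against control at day 7 (horizontal axis) and at day 7 with forskolin (vertical axis) for 75 of the 76 tested members, coloured by complex, with NFIA on the left and Δpro#3 on the right. The sets of samples on the 2 axes are separate. With NFIA Cox6a2 lies at −1.82 and −2.35 and Cox6a1 at 1.07 and 0.85, while the points of Δpro#3 stay between −0.61 and 0.60.

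The 4 h of forskolin itself left most members without a call. In control cells 2 rose and 0 fell (7.05% and 13.5% of all 12245 genes), namely Atp5g2 (0.20) and Ndufb6 (0.19), with 10 and 0 at an unadjusted p under 0.05 and 2 and 0 by limma-voom. Median-ratio scaling gave 6 and 0, beside 9.14% and 8.53% of all genes, and leaving out 1 sample gave 0 to 5 rising. In Δpro#3 cells 1 rose and 5 fell (11.9% and 23.9%). In NFIA cells 5 rose and 10 fell (13.9% and 41.5%). The split depended on the scale, since scaling, which moved the median of all genes by 0.11, turned it to 18 and 2. All genes then stood at 22.4% and 28.5%, so the share that rose was near that of all genes. In Δpro#3 the split turned to 4 and 1, beside 14.6% and 19.3% of all genes. Atp5d (0.34) and Ndufb6 (0.22) rose and Cox6a2 (−0.51) and Ndufv3 (−0.35) fell in NFIA cells. Ndufv3 lay at 152, 137 and 149 FPKM without and 133, 104 and 108 FPKM with the drug. Without replicate 1 of NFIA with forskolin 31 members fell instead of 10, and without replicate 3 there were 6.

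Tested as a difference, the response to forskolin was lower in NFIA than in control cells for 6 members and higher for 0 (21.5% and 9.16% of all genes). At an unadjusted p there were 13 and 0, and by limma-voom 6 and 0. The count of 6 varied, with 3 under median-ratio scaling, where 15.2% of all genes were lower. It was 3 without a trend, 11 in 1 fit of all 27 samples and 23 without replicate 1 of NFIA with forskolin. For Δpro#3 there were 0 in each direction (2.5% and 2.47%), with 8 lower and 1 higher at an unadjusted p and 0 by limma-voom. Among the regulators of the chain, Ppargc1a, the coactivator that drives mitochondrial biogenesis, was at 4.30, 4.25 and 4.16 FPKM in NFIA cells without and 12, 14.5 and 15.5 FPKM with forskolin. In control it averaged 1.08 ± 0.158 FPKM (SD, n = 3) without the drug and lay at 2.06, 2.25 and 1.78 FPKM with it. Its log2 response was 1.51 ± 0.10 in NFIA and 0.54 ± 0.10 in control cells (difference 0.97 ± 0.14, adjusted p = 9.0e-05). Of the 15 tested regulators 5 rose and 3 fell with forskolin in NFIA cells (median −0.01). In the difference from control 4 were higher and 2 lower. Cycs, which encodes the electron carrier cytochrome c, rose by 0.51 ± 0.05 in NFIA cells. Of the 9 other respiratory chain genes, to which it belongs, 2 rose and 4 fell there (median −0.19), and 3 and 1 under median-ratio scaling (−0.05).

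The wider pathway at day 7 was uneven, read against 31.3% of all genes higher and 41.1% lower with NFIA and a median of −0.08. Under median-ratio scaling 36.3% and 34.9% of all genes were higher and lower. Of 13 TCA cycle enzymes, 11 were higher and 1 lower with NFIA (median 0.48), among them citrate synthase (Cs), at 156, 154 and 158 FPKM in control, 424, 435 and 419 in NFIA and 193, 194 and 203 FPKM in Δpro#3 cells. This was 2.73 times the control mean, above the 2.09 of Cox6a1. Cycs was at 41.8, 38.9 and 42.8 FPKM in control and 109, 107 and 99.5 FPKM in NFIA cells, and Cyc1, the cytochrome of complex III, was also higher (0.52 ± 0.06). Of the 9 other respiratory chain genes these belong to, 6 were higher and 2 lower (median 0.52), the latter being Atpif1 (−0.95 ± 0.05), the inhibitor of ATP synthase, and Gpd2 (−0.55 ± 0.08). Of mitochondrial ribosomal proteins, which make the subunits encoded in mitochondrial DNA, 18 of 78 were higher and 43 lower (median −0.19), and 19 and 29 under median-ratio scaling (−0.09). Of cytosolic ribosomal proteins 0 of 80 were higher and 71 lower (−0.41), and 1 and 60 under scaling (−0.30). Assembly factors had 8 of 38 higher and 13 lower (−0.05), and 10 and 11 with a median of 0.05 under scaling, where the sign turned. Of 15 tested regulators 5 were higher and 8 lower: Ppargc1a (1.34 ± 0.08), Esrra (0.67 ± 0.09) and Ppargc1b (0.20 ± 0.07) were higher, Tfam (−0.64 ± 0.05), which packages and transcribes mitochondrial DNA, and Nrf1 (−0.28 ± 0.07) lower, and Gabpa was at −0.01 ± 0.06.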

How the data were processed

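Total polyadenylated RNA of 27 C2C12 samples (3 in each of 9 groups) was sequenced with a strand-marking kit. The authors aligned reads to mm9 with STAR 2.5.3a, dropped reads with more than 1 place in the genome, and deposited FPKM values per gene from fragments whose strand matched the gene, without scaling between samples. Every value times the gene's length was a whole number of fragments (100% of values, tolerance 0.01), and a sample held 9567769 to 27230965 fragments (median 17707223). Symbols of 26 rows had been turned into dates and 2 symbols occurred again.

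Groups came from the sample titles. Log2(FPKM + 1) was compared with limma 3.58.1 (R 4.3.3, variance moderation with a trend) on all genes with a mean of at least 0.5 FPKM in the samples of a fit, with Benjamini-Hochberg adjustment over all genes within each contrast and a threshold of 0.05. Fits held the 9 samples of a time point, or the 18 samples of both time points or of day 7 with and without forskolin, with differences between constructs as interaction contrasts. Fold changes on the log2(FPKM + 1) scale understate the change of low genes. Isoform shares were compared by exact two-sided permutation tests (Python 3.11.15, scipy 1.17.1). Values after ± are SE for log2 changes. Members and gene lists were chosen with earlier results of these data known. Genes named were isoform groups, core subunits, regulators and, per contrast, the 2 called members with the largest rise and fall. Ndufa3, Ndufb3, Ndufb2, Uqcrq, Cox8b, Cox7a1 and the promoters shown were picked after their values were seen. Sdhc, Sdhd, Atpif1 and Gpd2 and the brown fat markers Cidea, Dio2 and Ucp1 were named outside these rules. Alternatives were a pseudocount of 0.1, median-ratio scaling, no filter, a filter of 5 FPKM, no trend, 1 fit of 27 samples, a replicate block, limma-voom on the recovered fragments and leaving out each sample; scaling of the gene lists was added after seeing the data. The steps were tested on simulated data. Coordinates and transcripts are from GENCODE on NCBIM37, the assembly of mm9, and promoter windows from RefSeq. The values of 1 member are not reported here on their own, and the plots by member leave it out.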

Additional observations from a re-analysis of the deposited data

Results flagged for a closer look

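Results are listed here because the difference between 2 constructs was itself tested, as an interaction in limma, and passed at an adjusted p under 0.05. The shares of all genes that passed are given beside the counts, and those under median-ratio scaling with the results above. The course from day 0 to day 7 differed between NFIA and control cells for 48 of 76 members, 32 higher and 16 lower, where 31.1% and 40.1% of all genes did, with Cox8a (1.12) and Ndufv3 (0.91) having the largest positive differences of log2 change and Ndufa5 (−0.78) and Atp5s (−0.56) the largest negative ones. Between Δpro#3 and control cells it differed for 18 of 76 members, 12 higher and 6 lower (18.9% and 25.9% of all genes; 22 and 4 under median-ratio scaling, and 7 higher without control replicate 1 of day 7), led by Cox6a2 (1.11), Uqcrfs1 (0.55), Atp5s (−0.67) and Cox7a2 (−0.44). The response to forskolin differed between NFIA and control cells for 6 of 76 members (all lower, where 9.16% of all genes were higher and 21.5% lower), with counts of 3 to 23 when 1 sample was left out, among them Cox6a2 (−0.53) and Ndufv3 (−0.47). Cox6a2 rose more with Δpro#3 than in control, also with a pseudocount of 0.1 (1.42, adjusted p = 5.5e-05), from a day 0 level below control. The summed muscle marker mRNA at day 0 was also below control with both, at 155 to 163 FPKM with NFIA and 471 to 478 FPKM with Δpro#3 beside 2108 to 2259 FPKM, and its part in these differences was not tested.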

How the results depend on the processing

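Median-ratio scaling turned the balance of higher and lower members with forskolin in NFIA (5 and 10, then 18 and 2), in Δpro#3 (1 and 5, then 4 and 1) and for Δpro#3 against control with forskolin (9 and 14, then 13 and 6). Shares of all genes under this scaling are given with the results above. The Cox6a2 difference in course between NFIA and control was lost with a pseudocount of 0.1. The counts for NFIA against control at day 7 (32 to 41 higher) and for the course (74 to 75 higher in control and NFIA, 75 in Δpro#3) stayed within 1.5 times when each sample was left out. Median-ratio scaling moved the members lower in Δpro#3 than in control with forskolin to 6, those lower in Δpro#3 than in NFIA with forskolin to 44, those that rose more in Δpro#3 than in control from day 0 to 22, those that rose with forskolin in control to 6, those that fell with it in NFIA to 2 and in Δpro#3 to 1, and those with a lower response in NFIA than in control to 3. Without a filter 9 members were higher in Δpro#3 than in control at day 0, 8 lower with forskolin, and 1 rose with forskolin in control. Without a trend 3 members had a lower response in NFIA. In 1 fit of all 27 samples these were 11, and at day 0 8 members were higher in Δpro#3 than in control and 12 lower than in NFIA. Without the 3 members with the highest level the ratio of the members' share in NFIA to control at day 7 was 1.15 instead of 1.19. The cause of these shifts was not tested.

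Leaving out 1 sample gave 10 to 19 members higher in Δpro#3 than in control at day 0 (10 without control or Δpro#3 replicate 3), 7 to 20 lower with forskolin (7 or 8 without any 1 control or without Δpro#3 replicate 3), and 7 to 17 that rose more in Δpro#3 than in control (7 without control day 7 replicate 1). It gave 0 to 5 that rose with forskolin in control, 6 to 31 that fell in NFIA, 1 to 9 that fell in Δpro#3 (1 without Δpro#3 day 7 replicate 1 or Δpro#3 forskolin replicate 3), and 3 to 23 with a lower response in NFIA. Samples with the same replicate number did not deviate together (mean correlation 0.0139 at day 0, −0.0314 at day 7, −0.00195 with forskolin), so they were not taken as pairs. With the replicate block 37 members were higher with NFIA than in control at day 7 and 25 lower with Δpro#3 than with NFIA. With 3 samples a group the exact test of a share cannot go below 0.1.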
